A study of Mus musculus with 8 samples.

Results

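The mitochondrial ribosomal proteins studied here were the protein-coding genes of the count table whose names begin with Mrpl or Mrps followed by a digit. There were 78 of them among 54532 genes, 49 named Mrpl and 29 named Mrps. They were compared between ICAM1high and ICAM1low neutrophils, 4 biological replicates of each, sorted by flow cytometry from untreated mouse mammary tumours. The tumours grew from 2208L cells placed in the mammary fat pad of mice of the Balb/c strain, and were dissociated once they measured 1 cm across. Both fractions share this tumour model, strain and handling, and ICAM1 (CD54), the adhesion molecule that separated them, was the sorting criterion. Whether each replicate was a separate mouse is not stated, and p-values then reflect only how far these samples spread, which may be partly technical.

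Mitochondrial ribosomes translate the few messenger RNAs made from mitochondrial DNA, which encode core subunits of the respiratory chain and of ATP synthase. Their RNA parts are transcribed from mitochondrial DNA, whereas all their proteins are encoded in the nucleus, made in the cytosol and imported. Some of the proteins have counterparts in bacteria and others occur in mitochondria only. Mature neutrophils are known for a sparse mitochondrial network and a reliance on glycolysis, whereas macrophages hold more respiring mitochondria.

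Libraries held 10328575 to 20625309 counts in the ICAM1high fraction and 16768777 to 22751975 in the ICAM1low fraction, each made with a kit for messenger RNA from 100 ng of total RNA. The 12 neutrophil markers (S100a8, Csf3r, Cxcr2 and others) summed to 9462 to 12652 CPM (counts scaled to the effective library size) in ICAM1high libraries and 40361 to 80114 CPM in ICAM1low libraries, and all 12 were lower in ICAM1high cells (Mmp9 had a log2 fold change of -0.56, but 0.12 when library totals were the only scaling). The 12 macrophage markers (Adgre1, Csf1r, C1qa and others) summed to 10159 to 17173 CPM in ICAM1high libraries and 1203 to 1877 CPM in ICAM1low libraries, and 11 of 12 were higher. Dividing-cell markers summed to 100 to 142 CPM in ICAM1high and 58.1 to 84.0 CPM in ICAM1low libraries, with 6 of 8 higher. Mammary epithelial markers summed to 123 to 173 CPM in ICAM1high and 283 to 491 CPM in ICAM1low libraries, with 6 of 8 tested lower. B cell markers summed to 44.9 to 114 CPM in ICAM1high and 7.52 to 18.8 CPM in ICAM1low libraries, with 2 of 3 tested higher, and fibroblast and endothelial markers to 71.0 to 126 CPM in ICAM1high and 49.6 to 71.3 CPM in ICAM1low libraries, with 2 of 7 tested higher. Sums for T and NK cells and for dendritic cells ran up to 18.3 and 9.09 CPM in ICAM1high libraries and up to 22.6 and 9.32 CPM in ICAM1low libraries, and no marker of any list was at 0 in all libraries. The macrophage, neutrophil and dividing-cell sums differ between the same fractions as the results given here, and their part in those results was not tested. In such bulk libraries, a change in the number of cells of a type and a change in RNA per cell cannot be told apart.

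Most members had positive values in ICAM1high cells, while the largest change of the family, that of Mrpl33, and that of Mrpl45 ran the other way. Of the 77 members tested, 23 were higher, 2 were lower and 52 did not pass (edgeR quasi-likelihood test, Benjamini-Hochberg adjusted p under 0.05 over all genes). Over all 14051 genes tested, 22.6% were higher and 19.6% were lower, so the share of members called higher (29.9%) was close to the background and the share called lower (2.6%) was well under it. The median log2 fold change, ICAM1high over ICAM1low, was 0.56 over the members and 0.08 over all genes, and 62 of 77 members had a positive value, against 53.2% of all genes. Without ICAM1high replicate 1 the counts were 12 higher and 5 lower, against 20.7% and 20.4% of all genes. Without ICAM1high replicate 2 they were 12 and 2, against 16.2% and 14.9%. Without ICAM1low replicate 1 they were 17 and 4, against 21.1% and 18%. Library totals in place of TMM factors raised the median of all genes by 0.68. With them 61 members were higher and 2 lower, against 48.5% and 5.97% of all genes. The distance between the medians of members and genes was 0.49 under either scaling. A change of scaling shifts all genes nearly alike, so this distance could hardly differ.

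**Figure D1:**
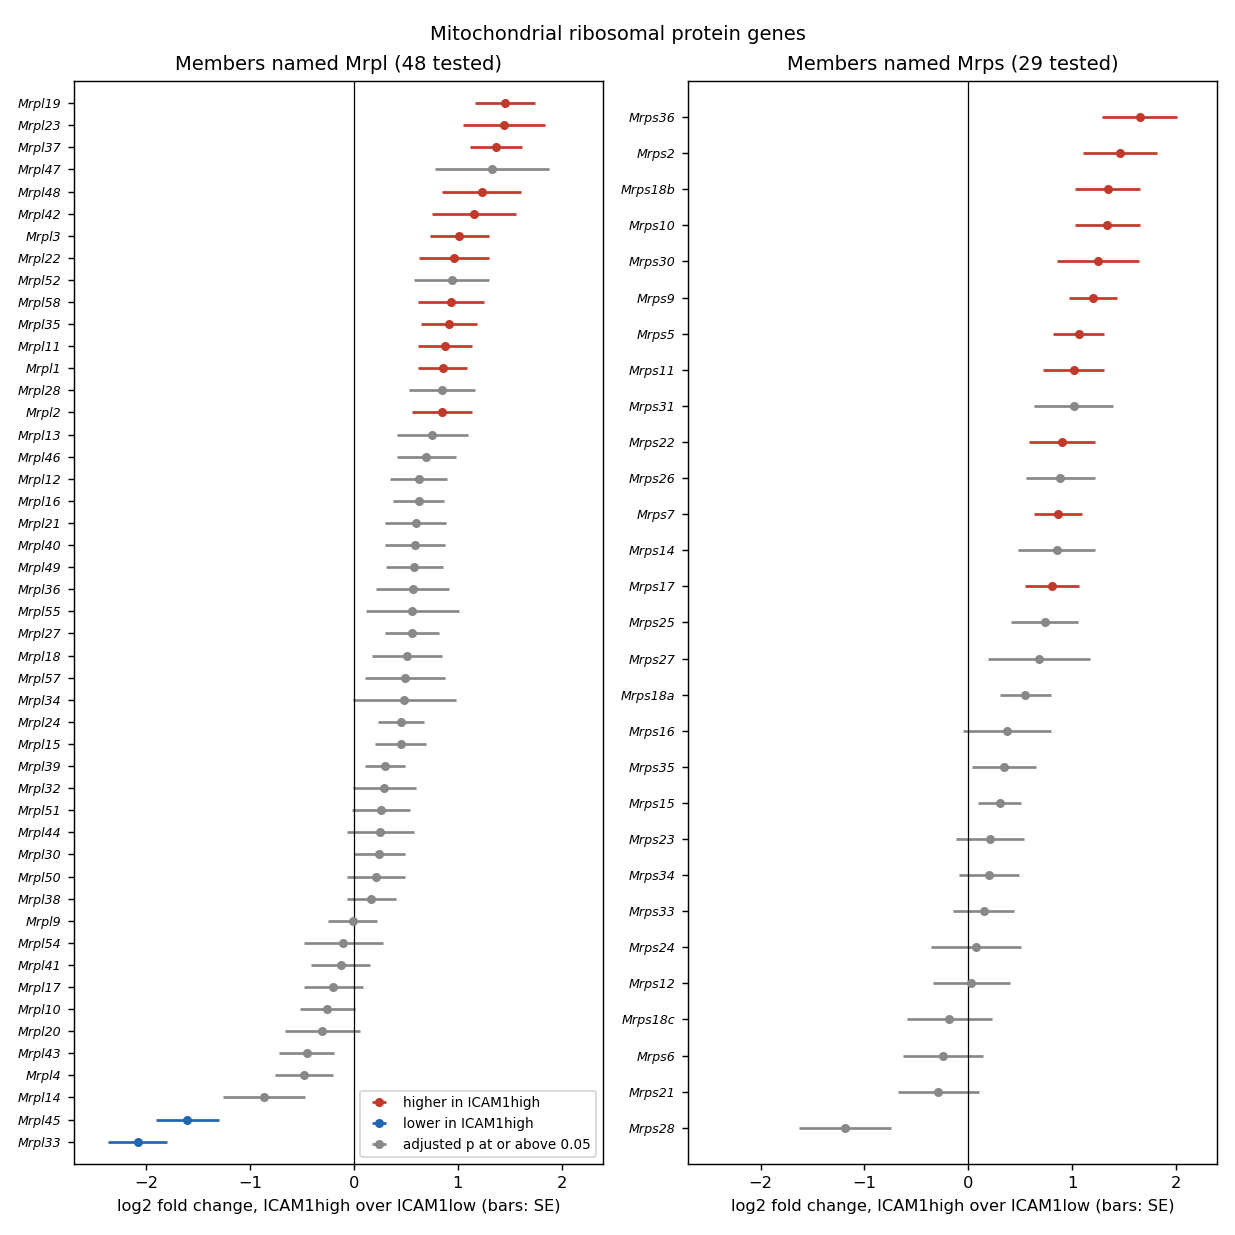
Log2 fold change, ICAM1high over ICAM1low, of each tested member, with bars of 1 standard error, for 48 members named Mrpl (left) and 29 named Mrps (right), ordered by value. Red points passed as higher (12 and 11), blue points as lower (Mrpl33 and Mrpl45), and grey points did not pass.

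All 4 ICAM1high libraries lay above all 4 ICAM1low libraries for 24 members, against 23.4% of all genes, and below them for 2, against 18% of all genes. The 2 were Mrpl33 and Mrpl45. Mrps31, Mrpl28, Mrps25, Mrpl46 and Mrpl16 were higher in every library comparison without passing the test, and Mrpl23, Mrpl22, Mrpl58 and Mrpl2 passed although 1 or more libraries overlapped. Just inside the threshold were Mrps22, with an edgeR adjusted p of 0.0432, and Mrpl22 with 0.0404. Just outside were Mrps31 with 0.0513, Mrps28 with 0.0514 and Mrps26 with 0.0542.

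Mrpl33, which encodes bL33m, a small protein of the large subunit, was the most strongly lowered member. It had 49.9, 24.1, 28.0 and 28.6 CPM in the 4 ICAM1high libraries, against 122, 102, 129.7 and 201 CPM in the 4 ICAM1low libraries. Even the highest ICAM1high library reached less than the lowest ICAM1low library. Its log2 fold change was -2.09 (SE 0.28, edgeR adjusted p = 0.000306). The gene model behind these counts (ENSMUSG00000106918, chr5:31596935-31664384, plus strand of mm10) is 7326 bases long, of which 478 (6.5%) lie in its single protein-coding transcript and 4521 lie outside the RefSeq gene of that name. This is the lowest coding-transcript share of the 78 members, whose median is 77.7%, and the counts cannot be divided between the coding transcript and the other 10 transcripts of the model.

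Mrpl45 encodes mL45, a protein specific to mitochondria that sits at the polypeptide exit and holds the ribosome to the inner membrane. Its level was 28.7, 29.8, 26.0 and 31.8 CPM in ICAM1high libraries, against 50.3, 84.0, 66.8 and 153 CPM in ICAM1low libraries. The ICAM1high values were tightly grouped (29.1 ± 2.41 CPM, SD, n = 4) and the ICAM1low values spread widely (88.5 ± 45 CPM, SD, n = 4), with no overlap. The log2 fold change was -1.61 (SE 0.30, edgeR adjusted p = 0.00199). Mrpl45 (ENSMUSG00000018882, chr11:97315716-97329920, plus strand) has no exon overlap with another annotated gene.

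Mrpl33 and Mrpl45 together made up 5.16, 5.33, 6.06 and 7.27% of the summed CPM of the family in ICAM1high libraries, against 25.0, 19.0, 20.8 and 23.6% in ICAM1low libraries. This share, which does not depend on library scaling, was 5.96 ± 0.96% in ICAM1high cells and 22.1 ± 2.70% in ICAM1low cells (SD, n = 4 each). The difference is larger than the spread within either fraction. The pair was chosen for the sum after its values were seen. The Mrpl33 part of the share rests on the gene model described above, of which 6.5% lies in the coding transcript.

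**Figure D2:**
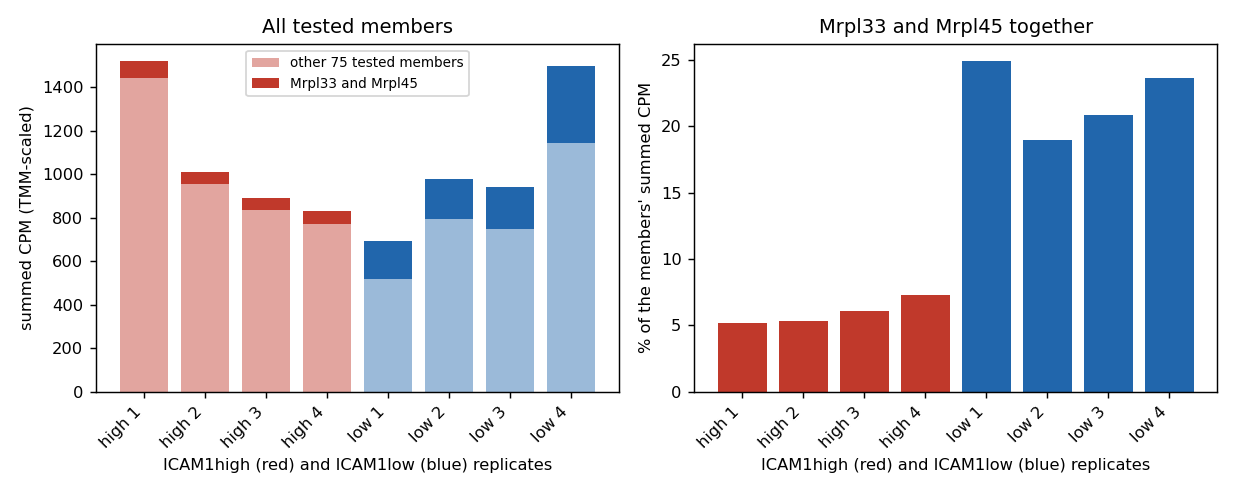
Summed CPM of the 77 tested members per library (left, bars from 0; the dark part is Mrpl33 with Mrpl45 and the light part the other 75) and the share of the sum in Mrpl33 and Mrpl45 (right, %). The share is 5.16 to 7.27% in the 4 ICAM1high libraries (red) and 19.0 to 25.0% in the 4 ICAM1low libraries (blue), while the whole sums overlap.

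The members drew 0.179, 0.135, 0.114 and 0.105% of all counts in ICAM1high libraries and 0.0563, 0.0846, 0.0733 and 0.106% in ICAM1low libraries. Only ICAM1high replicate 4 fell inside the ICAM1low range. As TMM-scaled CPM, the sum was 1063 ± 315 in ICAM1high cells and 1028 ± 338 in ICAM1low cells (SD, n = 4 each), a difference well within the spread. Leaving out Mrpl33 and Mrpl45, it was 1002 ± 305 CPM in ICAM1high cells and 801 ± 258 CPM in ICAM1low cells, which also overlap. The part of the sum in genes named Mrpl was 70.3 ± 0.586% in ICAM1high cells and 77.4 ± 1.26% in ICAM1low cells, and without Mrpl33 and Mrpl45 it was 68.4 ± 0.353% in ICAM1high cells and 71.1 ± 1.21% in ICAM1low cells (SD, n = 4 each).

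Promoter stretches of 4 members follow, from 170 bases before to 30 bases after the RefSeq start (GRCm38.p6), written from 5′ to 3′ along the gene. They are the 2 lower members and 2 of the members with the smallest p among the higher ones, 1 of each subunit name. Capitals mark letters of 2 factors known to act on genes for mitochondrial proteins, TGCGCA from the NRF1 site and CCGGAAG from the ETS site bound by GABPA.
Mrpl33, chr5:31613781-31613980, plus strand: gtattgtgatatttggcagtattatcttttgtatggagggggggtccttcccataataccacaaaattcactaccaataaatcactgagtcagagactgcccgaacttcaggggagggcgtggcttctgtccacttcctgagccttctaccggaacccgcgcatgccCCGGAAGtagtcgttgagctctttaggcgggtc
Mrpl45, chr11:97315546-97315745, plus strand: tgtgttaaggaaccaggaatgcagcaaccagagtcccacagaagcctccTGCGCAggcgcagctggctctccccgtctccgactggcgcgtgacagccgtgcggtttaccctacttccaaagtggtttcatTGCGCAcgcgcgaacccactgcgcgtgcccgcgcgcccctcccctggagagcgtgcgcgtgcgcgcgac
Mrpl37, chr4:107066837-107067036, minus strand: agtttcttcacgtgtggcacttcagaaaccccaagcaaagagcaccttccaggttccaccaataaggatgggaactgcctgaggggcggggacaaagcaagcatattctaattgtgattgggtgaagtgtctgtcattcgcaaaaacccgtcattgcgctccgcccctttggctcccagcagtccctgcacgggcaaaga
Mrps9, chr1:42851063-42851262, plus strand: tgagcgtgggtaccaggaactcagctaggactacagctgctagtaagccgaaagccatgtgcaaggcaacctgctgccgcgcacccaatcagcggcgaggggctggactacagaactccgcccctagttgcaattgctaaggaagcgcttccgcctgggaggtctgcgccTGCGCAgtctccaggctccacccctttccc

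In the Mrpl33 stretch CCGGAAG begins 3 bases before the RefSeq start, and this start lies inside the deposited gene model and not at its end. Mrpl45 has TGCGCA at 121 and at 39 bases before its start, and Mrps9 has it at the first transcribed base. Mrpl37 has neither, but AAGATGGC, letters of the YY1 site, begins at base 27 of the transcribed part and runs past the end of the stretch. These are matches of letters in a window, not shown to be bound.

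Both strands of RefSeq windows reaching from 250 bases before to 50 after the start were searched for the same letters, in 75 windows of 69 members. TGCGCA, which reads the same on either strand, was in 29.3% of them, against 9.7% of all protein-coding windows. CCGGAAG was in 34.7% against 11.6%, and AAGATGGC in 16.0% against 3.1%. At least 1 of the 3 was present in 60.0% of member windows and 21.6% of protein-coding windows, whereas TATAAA was in 6.7% and 12.6%. At least 1 of the 3 was in 15 of 27 windows of higher members and 27 of 45 of members that did not pass, so these letters were common in both. Among windows of lower members it was 2 of 2, too few to compare directions. Windows of higher members held TGCGCA in 8, CCGGAAG in 6 and AAGATGGC in 5 of 27. Those of members that did not pass held them in 13, 18 and 7 of 45. A protein-coding neighbour starting on the opposite strand within 1000 bases was annotated for 18 members (23.1%), against 6.8% of protein-coding genes.

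Genes named Mrpl encode large-subunit proteins. Of the 48 tested, 12 (25%) were higher and 2 (4.17%) lower, against 22.6% and 19.6% of all genes. The share higher was thus close to that of all genes. The median log2 fold change of the 48 was 0.56. Mrpl37, for a large-subunit protein that occurs only in mitochondria, had 22.7, 15.8, 19.98 and 16.8 CPM in ICAM1high libraries, against 5.80, 10.03, 8.23 and 5.12 CPM in ICAM1low libraries. The fractions did not overlap, and the log2 fold change was 1.37 (SE 0.25, edgeR adjusted p = 0.0017). Mrpl19, for bL19m at the face toward the small subunit, had 8.27, 7.11, 7.19 and 6.18 CPM in ICAM1high libraries, against 1.76, 4.10, 2.24 and 2.37 CPM in ICAM1low libraries. Again every ICAM1high library was above every ICAM1low library (log2 fold change 1.45, SE 0.29, edgeR adjusted p = 0.0028). Mrpl3, for the core rRNA-binding protein uL3m, rose by a log2 fold change of 1.01, and Mrpl42 by 1.16.

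The stalk of the large subunit and its base recruit translation factors. Of the 3 members listed for it here, Mrpl11 was higher with a log2 fold change of 0.88. Mrpl12 had 0.62 and Mrpl10 -0.26 without passing. The sign of Mrpl10 turned to 0.43 when library totals were used for scaling.

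The central protuberance faces the head of the small subunit. All 7 members listed for it here had positive values, with a median log2 fold change of 0.56. Of these 7, only Mrpl48 passed (1.23), and the list need not hold every protein of the structure. Mrpl46 had 0.69, Mrpl40 0.58, Mrpl55 and Mrpl27 0.56, Mrpl18 0.51 and Mrpl38 0.17. Mrpl48 shares exon bases with Rab6a on the other strand, which held 22474 counts in all against 976 for Mrpl48, and reads of the pseudogene Mrpl48-ps could also be counted for it.

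At the polypeptide exit the members listed here diverged. Mrpl23, for uL23m, and Mrpl22, for uL22m, were higher, with log2 fold changes of 1.44 and 0.96, while Mrpl45 was lower. Mrpl24, Mrpl39 and Mrpl44 had 0.45, 0.30 and 0.25 and Mrpl17 -0.20 (0.50 with library totals), none of which passed. Mrpl23 had 21.1, 12.2, 10.4 and 6.41 CPM in ICAM1high libraries, against 2.86, 4.83, 7.19 and 3.49 CPM in ICAM1low libraries, so that ICAM1high replicate 4 lay below ICAM1low replicate 3. The pseudogene Mrpl23-ps1, with 135 counts in all, could share reads with it.

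Among genes named Mrps, 11 of 29 (37.9%) were higher and 0 lower, against 22.6% and 19.6% of all genes. The median log2 fold change of the 29 was 0.74. At an unadjusted p under 0.05 edgeR had 1 lower, Mrps28, and DESeq2 and limma-voom each called 1 lower. Mrps28 had 11.97, 5.75, 4.15 and 3.74 CPM in ICAM1high libraries, against 8.58, 9.23, 16.2 and 24.6 CPM in ICAM1low libraries, and the fractions overlapped through ICAM1high replicate 1 (log2 fold change -1.19, SE 0.44, edgeR adjusted p = 0.0514). Of the 16 small-subunit proteins with a bacterial counterpart, 7 (43.8%) were higher, against 22.6% of all genes. Among the 7 were Mrps2, Mrps10, Mrps9 and Mrps5. Mrps2 had 11.4, 9.41, 9.36 and 7.40 CPM in ICAM1high libraries, against 3.89, 5.14, 3.34 and 1.31 CPM in ICAM1low libraries, and the fractions were apart (log2 fold change 1.46, SE 0.36, edgeR adjusted p = 0.0082). Mrps9 had 14.4, 10.7, 11.8 and 10.5 CPM in ICAM1high libraries, against 3.52, 6.30, 4.95 and 5.87 CPM in ICAM1low libraries, also without overlap (log2 fold change 1.20, SE 0.23, edgeR adjusted p = 0.0025). Mrps10 rose by a log2 fold change of 1.34. All 10 small-subunit members listed as specific to mitochondria had positive values, among them Mrps18b although it is related to a bacterial protein. Of these 10, 2 (20%) passed as higher, Mrps18b (1.34) and Mrps22 (0.90), against 22.6% of all genes.

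Mammals carry 3 relatives of bacterial S18, which occupy different places in the ribosome. Mrps18b was higher, while Mrps18a had a log2 fold change of 0.55 and Mrps18c -0.18, neither of which passed, and the value of Mrps18c was 0.52 with library totals. Mrps18a and Mrps30 are large-subunit proteins in the current nomenclature in spite of their names, and Mrps30 was higher (1.25, edgeR adjusted p = 0.0259). Mrps36, whose product is now assigned to the alpha-ketoglutarate dehydrogenase complex and not to the ribosome, had the largest positive value of the family. It had 9.67, 5.71, 5.07 and 4.04 CPM in ICAM1high libraries, against 1.98, 1.35, 1.55 and 2.93 CPM in ICAM1low libraries, with no overlap (log2 fold change 1.65, SE 0.36, edgeR adjusted p = 0.0046). Reads of 2 expressed pseudogenes, with 16 and 11 counts in all, could have been counted for it.

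**Figure D3:**
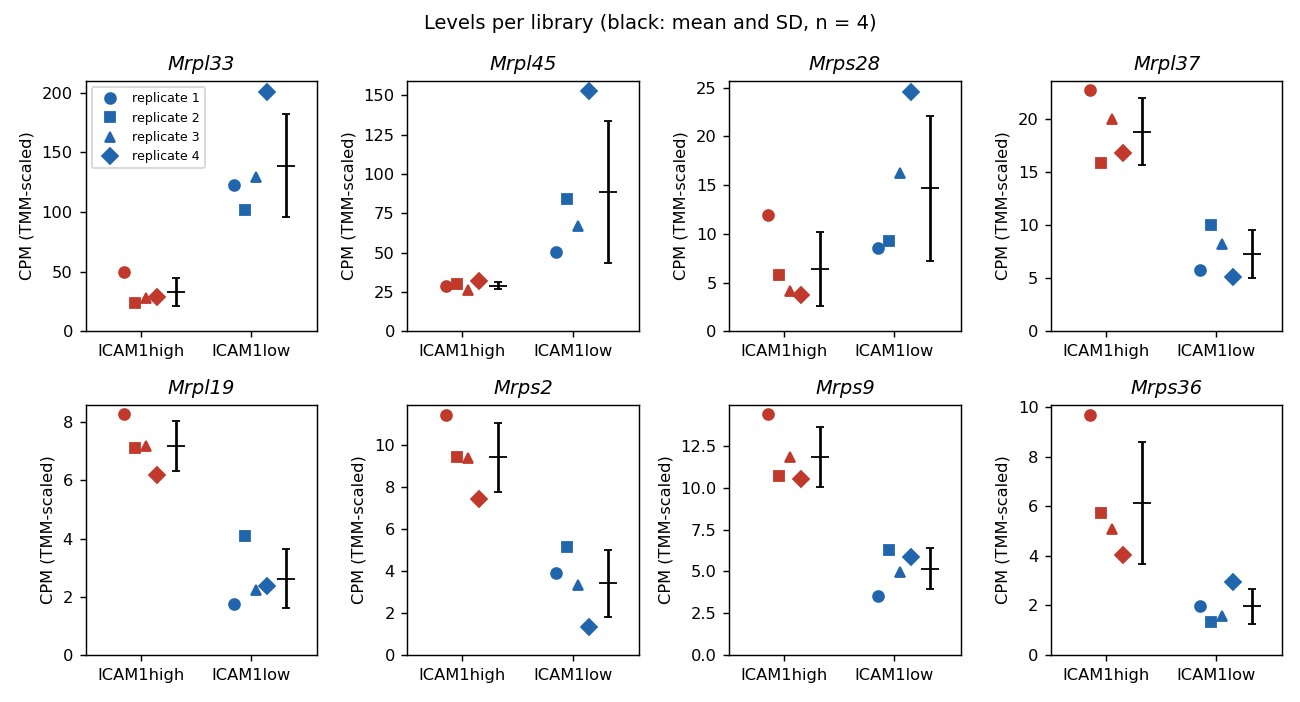
TMM-scaled CPM of 8 members in each library, ICAM1high (red) left of ICAM1low (blue), with marker shapes for replicates 1 to 4 and black bars for the mean and SD (n = 4); every axis starts at 0. Mrpl33 and Mrpl45 are lower in all ICAM1high libraries, Mrps28 overlaps between fractions, and the other 5 members are higher in all ICAM1high libraries.

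Per base of gene model, Mrpl52 was the most abundant member, with a mean of 60.8 RPKM in ICAM1high cells and 31.7 RPKM in ICAM1low cells (RPKM, reads scaled by depth and by the deposited gene length, computed here). Mrps21 had 29.8 RPKM in ICAM1high cells and 36.4 in ICAM1low cells, and Mrpl43 had 26.3 RPKM in ICAM1high cells and 36.1 in ICAM1low cells. None of these 3 passed the test (log2 fold changes 0.94, -0.29 and -0.46), and with library totals Mrps21 and Mrpl43 had 0.42 and 0.24. The lowest were Mrpl47, with 0.83 RPKM in ICAM1high cells and 0.328 in ICAM1low cells, Mrps10, with 0.99 RPKM in ICAM1high cells and 0.392 in ICAM1low cells, and Mrpl48, with 1.05 RPKM in ICAM1high cells and 0.449 in ICAM1low cells, all on long gene models. Mrpl53 had 0 counts in every library and was not tested. Of the 790 exon bases of its gene model, 695 lie within exons of Gm42688 on the same strand, which had 79 counts. A read there could not be assigned to 1 gene.

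Library by library, the members moved together within a fraction. ICAM1high replicate 1 was the highest of its fraction for 71 of 77 members (92.2%, against 39.9% of all genes), and ICAM1low replicate 1 the lowest of its own for 57 (74.0%, against 30.3%). ICAM1low replicate 4 was the highest of its fraction for 46 (59.7%, against 31.8%). Genes under 1500 bases took 11.2% of counts in ICAM1high replicate 1 and 6.35 to 6.71% in the other ICAM1high libraries, and 15.7% in ICAM1low replicate 4 and 6.58 to 9.05% in the other ICAM1low libraries. Without both of those libraries, 26 members were higher and 5 lower, against 25.5% and 24.5% of all genes, and the median was 0.47. Of the 23 members called higher with all libraries, 19 were still called. The fractions did not overlap for 31 members that lay above, against 32.3% of all genes, and for 4 that lay below, against 27.2%. The 5 lower were Mrpl33, Mrpl45, Mrps28, Mrpl14 and Mrpl43.

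The library numbers in the column names form a run for replicates 1 and 2 and a separate run for replicates 3 and 4. With replicates 1 and 2 alone, 18 members were higher and 2 lower, against 11.9% and 9.89% of all genes. The members' median log2 fold change was 1.03 (0.08 over all genes), with 73 positive. With replicates 3 and 4 alone, 2 members were higher (Mrpl19 and Mrpl37) and 3 were lower (Mrpl33, Mrpl45 and Mrps28), against 11.4% and 11% of all genes. The members' median was then -0.02 (0.05 over all genes), with 37 positive. The difference between the number runs was negative for 71 members, with a median of -0.95 against 0.05 over all genes. Tested as an interaction in edgeR, it passed for 0 members and 0 genes at an adjusted p under 0.05, with 23 members and 1606 of 14051 genes at an unadjusted p under 0.05. Replicate 1 of both fractions and ICAM1low replicate 4, in which the members shifted together, fall in different runs. With 2 libraries per fraction in each run, the run and these single libraries cannot be told apart. All 23 members called higher with all libraries had positive values in replicates 1 and 2 and in replicates 3 and 4, whereas the family median was positive in replicates 1 and 2 only. Mrpl33 (-1.60 in replicates 1 and 2, -2.60 in replicates 3 and 4), Mrpl45 (-1.20 and -1.99), Mrpl19 (1.38 and 1.49) and Mrpl37 (1.28 and 1.42) had the same sign in both runs. The calls of all these members used the same libraries, so their signs within each run are not a separate test. Mrps28 had -0.01 in replicates 1 and 2 and -2.42 in replicates 3 and 4.

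**Figure D4:**
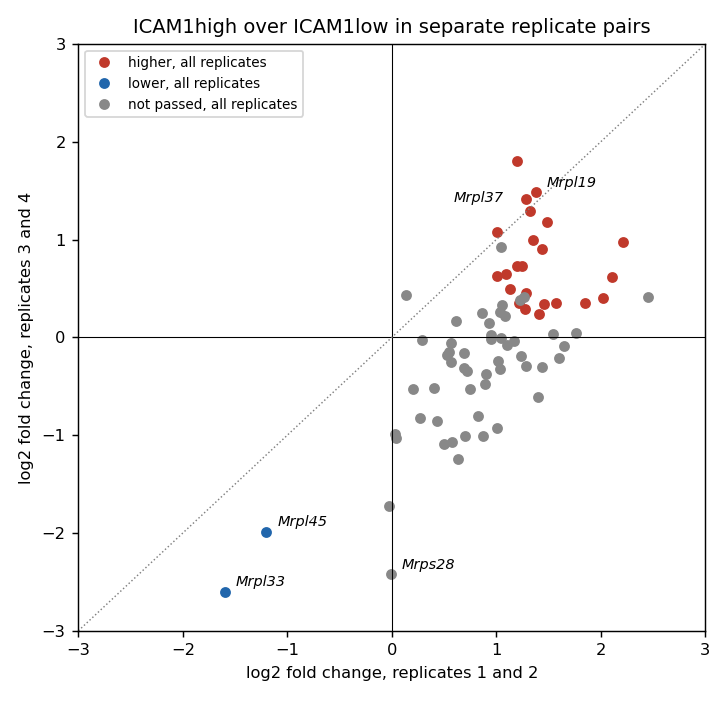
Log2 fold change, ICAM1high over ICAM1low, of the 77 members in replicates 3 and 4 (vertical) against replicates 1 and 2 (horizontal), coloured by the call with all replicates, with the line of equal values dotted. Nearly all points lie right of 0 (73 positive) but are split about 0 vertically (37 positive), and Mrpl33 and Mrpl45 lie far below 0 on both axes.

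Longer gene models among the members had larger fold changes. Members up to the median length of 2255 bases had a median log2 fold change of 0.48, with 6 of 39 higher, and longer members had 0.85, with 17 of 38 higher and both lower ones. Over all genes split at the same length the medians were -0.09 and 0.13. Higher calls took 12.2% of the shorter and 25.8% of the longer genes, against 15.4% and 44.7% of members. Lower calls took 18.6% and 19.9% of genes, against 0 and 5.26% of members. Across the 77 members, which share the 8 libraries, Spearman's rho between length and log2 fold change was 0.40, and it was 0.10 across all 14051 genes. Taken against the length of the longest coding transcript it was 0.25. These are descriptions across genes, which are not replicates, and 16 of the 78 models have under 50% of their bases in coding transcripts.

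Exons of 33 members overlap those of another gene, and for 21 of these the other gene held at least 10% of the member's counts. Among the named members these were Mrpl14, Mrpl18, Mrpl19, Mrpl24, Mrpl43, Mrpl44, Mrpl46, Mrpl47, Mrpl48, Mrpl53, Mrps11, Mrps18b and Mrps25. The strand setting of the counting is unknown here, so reads may have been assigned to either partner. The 57 tested members without such an overlap gave 18 higher (31.6%) and 2 lower calls (3.51%), with a median of 0.56. The 20 with one gave 5 higher (25%) and 0 lower, with a median of 0.59. Of all genes, 22.6% were higher and 19.6% lower. For the 20, 0 were also lower at an unadjusted p under 0.05 in edgeR, and 0 in DESeq2 and limma-voom.

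Lists of genes that serve the mitochondrial ribosome are read against the 22.6% of all genes called higher and 19.6% called lower, and with library totals against 48.5% and 5.97% and an all-gene median of 0.76. Wherever 0 genes of these lists were called lower by edgeR, 0 were lower at an unadjusted p under 0.05, and DESeq2 and limma-voom called 0 lower as well. Translation factors and their partners had 7 of 13 higher and 0 lower, with a median log2 fold change of 1.00 (12 higher and 0 lower with library totals). Lrpprc, which stabilises mitochondrial messenger RNAs, had 12.8, 17.5, 17.8 and 17.0 CPM in ICAM1high libraries and 7.12, 5.44, 6.21 and 2.93 CPM in ICAM1low libraries (log2 fold change 1.58). The elongation factor Gfm1 (1.00) and Oxa1l (1.03), which inserts new proteins into the inner membrane, were also higher. Of 25 assembly factors, 9 were higher and 2 lower with a median of 0.75 (18 and 0 with library totals). Mettl17, needed to build the small subunit, had 1.95, and Mterf3 and the helicase Dhx30 had 1.44 and 1.01. Trub2, a pseudouridine synthase, and Malsu1, a large-subunit assembly factor, were the lower ones (-0.56 and -0.82), but with library totals neither passed and Trub2 had 0.13.

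Mitochondrial aminoacyl-tRNA synthetases had 5 of 17 higher and 0 lower (median 0.55; 16 and 0 with library totals), among them Aars2 (1.57), Sars2 (1.31) and Rars2 (1.28). Genes for transcription and upkeep of mitochondrial DNA had 4 of 12 higher and 0 lower (median 0.66; 10 and 0 with library totals), led by the RNA polymerase Polrmt (1.14), the packaging factor Tfam (0.89) and the DNA-binding Ssbp1 (0.62). Nuclear regulators had 3 of 12 higher and 2 lower and a median of 0.02, and with library totals 8 higher, 0 lower and a median of 0.71. The GABP subunit Gabpb1 had 102, 95.4, 96.2 and 98.1 CPM in ICAM1high libraries, against 141, 155, 183 and 174 CPM in ICAM1low libraries, and was lower (-0.74), as was Esrra (-0.63), a nuclear receptor. With library totals neither passed, and the values were -0.048 for Gabpb1 and 0.072 for Esrra. The co-regulator Hcfc1 was higher (1.56), as were Pprc1 (0.93) and Ppargc1b (3.33). Ppargc1b had means of only 1.47 CPM in ICAM1high cells and 0.14 CPM in ICAM1low cells. Nrf1 (-0.30), Gabpa (-0.08) and Yy1 (-0.23), whose site letters were searched above, did not pass. With library totals Yy1 (0.46) and Gabpa (0.61) passed as higher and Nrf1 (0.37) did not pass. The 5 mitochondrial ribosomal proteins under other names, led by Chchd1 (0.80), Ptcd3 (0.57) and Dap3 (-0.18, or 0.51 with library totals), gave 0 calls in edgeR, DESeq2 and limma-voom with their usual scaling and 0 at an unadjusted p under 0.05 in edgeR. With library totals these 3 passed as higher, with edgeR adjusted p of 0.0146 for Chchd1, 0.0267 for Ptcd3 and 0.0224 for Dap3.

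Of 12 mitochondrially encoded protein genes tested, 1 was higher, mt-Nd5 (0.55), and 0 lower, with a median of 0.13, and with library totals 6 were higher and 0 lower, with a median of 0.83. Both ribosomal RNAs were lower in ICAM1high cells. The small-subunit rRNA mt-Rnr1 had 223, 145, 119 and 151 CPM in ICAM1high libraries, against 225, 404, 376 and 1014 CPM in ICAM1low libraries (log2 fold change -1.66, edgeR adjusted p = 0.0085). The large-subunit rRNA mt-Rnr2 had 528, 336, 286 and 421 CPM in ICAM1high libraries, against 754, 1185, 1115 and 3217 CPM in ICAM1low libraries (-1.996, edgeR adjusted p = 0.0036). Both passed as lower with library totals too (-0.94 and -1.27). The fractions did not overlap, though ICAM1high replicate 1 came close to ICAM1low replicate 1 for mt-Rnr1. A messenger RNA library recovers these rRNAs only in part, so they describe the libraries and not the amount of ribosome. Cytosolic ribosomal proteins, 96 tested, had 6 higher and 5 lower and a median of 0.18.

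**Figure D5:**
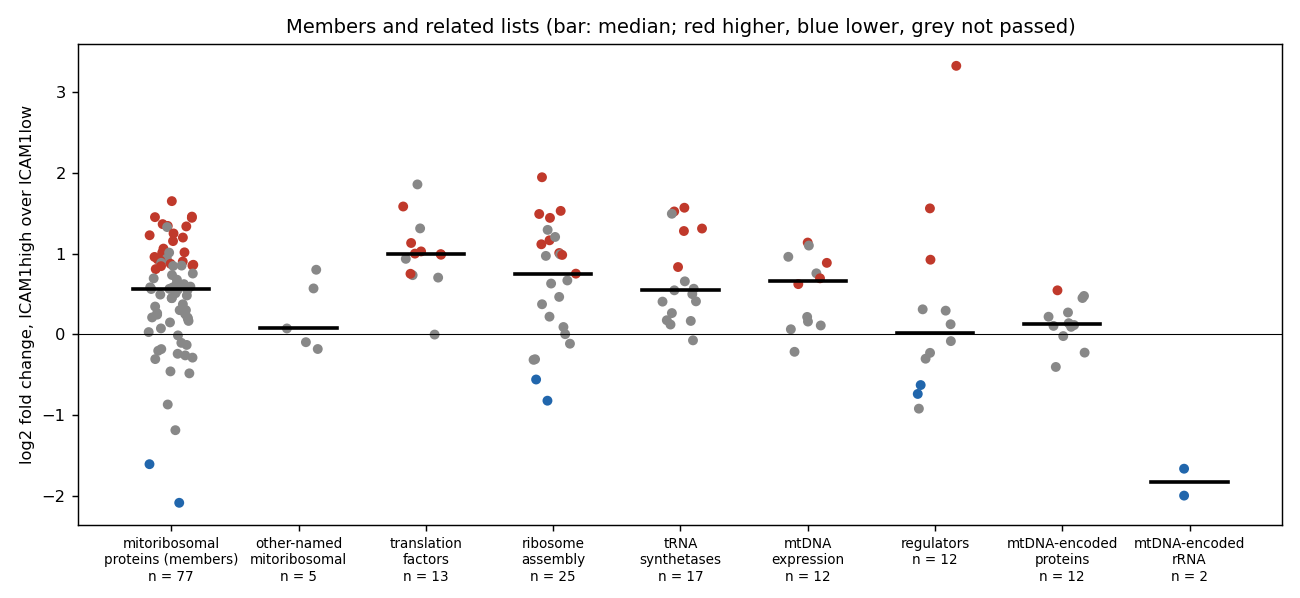
Log2 fold change, ICAM1high over ICAM1low, of the 77 members and of 8 related lists, with black bars for list medians and red, blue and grey points for genes higher, lower and not passed. The medians are 0.56 for the members, 1.00 for translation factors, 0.75 for assembly factors, 0.13 for proteins encoded by mitochondrial DNA and -1.83 for its 2 rRNAs.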

How the data were processed

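The data are 8 mRNA sequencing libraries, 4 ICAM1high and 4 ICAM1low. Read counts per gene were deposited by the authors as 1 table of whole numbers, not normalized. The other deposited quantity used is gene length in bases. HISAT2 and the mm10 genome are named per the submitters' processing notes. The tool that counted reads, its annotation release and its strand setting are not known here.

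Genes that passed filterByExpr by fraction (14051) were scaled by TMM, which also sets the CPM values, and compared in R 4.3.3 by the quasi-likelihood test of edgeR 4.0.16, ICAM1high against ICAM1low without pairing. Benjamini-Hochberg adjustment ran over all 14051 genes, with calls at 0.05. Each standard error is the size of the log2 fold change over the square root of F. Depth was 10328575 to 22751975 counts, which limits low values most. Libraries of a fraction varied beyond counting error (chi-square over its degrees of freedom 12.6 to 221), so each was kept as a replicate. The test was also run on simulated counts with known fold changes. Those counts were drawn independently for each gene, so they do not cover the shifts shared within a library that are described above.

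Exon overlaps and transcript types came from GENCODE M21, in which 73 of the 78 members had the deposited start and end, and promoter windows from RefSeq (GRCm38.p6). The members, gene lists and tests were chosen with earlier results of these data known. Members named were, per prefix and direction, up to 6 called ones with the largest change (mean log2 CPM 1 or more), the 3 highest and 3 lowest by RPKM, the S18 relatives, Mrps30, Mrps36, and the stalk, central protuberance and exit site. Each related list added up to 3 genes with the smallest p. Other called members, members near the threshold or without overlap between fractions, Mrps28, Mrpl14, overlapping members, Trub2, Malsu1, Esrra, Pprc1, Ppargc1b, Nrf1, Gabpa, Yy1 and the rRNAs were named after their values were seen.

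Alternatives were DESeq2 1.42.0, limma-voom (limma 3.58.1), other scalings and filters, robust dispersion, a block on replicate number, a term for the library-number run, each run alone, each library left out, ICAM1high replicate 1 and ICAM1low replicate 4 left out together, and offsets from 20 bins of gene length. The interaction of fraction with run, and non-overlap counts without the 2 libraries, were added after the data were seen.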

Additional observations from a re-analysis of the deposited data

Results flagged for a closer look

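In 100 groups of 4 libraries, those of the 50 named or called members in each fraction, 6 held 1 library far from the other 3, judged by the gap to the nearest library over the group's whole range of log2 CPM. Chance gives about 1 such library in 20 independent groups. These groups share the same libraries, in which the members moved together, so 6 of 100 cannot be read against that rate. Mrpl17 was high in ICAM1high replicate 1, with 48.8 CPM against 26.8 to 29.4 CPM in the others of that fraction (gap over range 0.849). Mrps11 was high in the same library, with 11.0 CPM against 5.19 to 5.84 CPM (0.842), and so was Mrpl28, with 20.6 CPM against 11.9 to 13.1 CPM (0.831). Mrpl39 was high in ICAM1low replicate 2, with 13.0 CPM against 9.24 to 9.32 CPM (0.974). ICAM1low replicate 1 was low for Mrpl42, with 2.64 CPM against 8.28 to 9.86 CPM (0.866), and for Mrpl27, with 5.65 CPM against 7.68 to 8.07 CPM (0.859).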

How the results depend on the processing

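Mrpl33 (log2 fold change -2.60 to -1.39, edgeR and other tools, adjusted p up to 0.0131), Mrpl45 (-1.99 to -0.89, up to 0.0317) and Mrpl37 (1.09 to 2.02, up to 0.0379) passed in all 23 alternatives, and no other called member did. The count of members higher, 23 with all libraries, was 61 with library totals, 9 with a replicate block, 2 with replicates 3 and 4 alone, and 12 to 32 with 1 library left out. Of all genes, 22.6% were higher with all libraries, 48.5% with library totals and 16.1% with the block. That share was 11.4% with replicates 3 and 4 alone and 16.2 to 23.6% with 1 library left out. The count lower, 2, was 5 without ICAM1high replicate 1 and ICAM1low replicate 4, 6 with length-bin offsets, and 2 to 5 with 1 library left out. Of all genes, 24.5% were lower without those 2 libraries, 25.4% with length-bin offsets and 14.9 to 20.4% with 1 library left out. The median of 0.56 was 1.25 with library totals, 1.03 with replicates 1 and 2 alone, -0.018 with replicates 3 and 4 alone, and 0.33 to 0.77 with 1 library left out. The remaining alternatives gave 16 to 29 higher and 2 to 3 lower.

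Libraries of the 2 fractions share replicate and library numbers, but the labels do not state a pairing, and the main test was unpaired. Same-numbered libraries correlated after removal of the fraction means at -0.57, 0.21, 0.18 and -0.30. With 4 libraries per fraction, these values cannot show whether the samples are paired. The replicate block gave 9 higher, 2 lower and a median of 0.56. The block with length-bin offsets gave 16 higher and 3 lower.

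Over the 50 named or called members, 923 alternative values kept their direction and side of the threshold, 127 kept direction but no longer passed, 77 newly passed and 23 turned sign. Mrps28 newly passed as lower in 12 of its 23 alternatives and Mrpl14 in 4. With library totals the sign turns were Mrpl10 (0.43), Mrpl17 (0.50), Mrpl43 (0.24), Mrps18c (0.52) and Mrps21 (0.42). With replicates 1 and 2 alone they were Mrpl10 (0.27), Mrpl17 (0.43), Mrpl43 (0.036), Mrps18c (0.70) and Mrps21 (0.63). With replicates 3 and 4 alone they were Mrpl18 (-0.30), Mrpl24 (-0.018), Mrpl38 (-0.029), Mrpl40 (-0.077), Mrpl44 (-0.15), Mrpl55 (-0.30) and Mrps18a (-0.0056). With 1 library left out, or ICAM1high replicate 1 and ICAM1low replicate 4 together, values ran across 0 for Mrpl17 (-0.49 to 0.096), Mrpl38 (-0.11 to 0.30), Mrpl44 (-0.084 to 0.44), Mrps18c (-0.60 to 0.28) and Mrps21 (-0.64 to 0.14). None of these had passed, and the cause was not tested. Apart from the members, the median of cytosolic ribosomal proteins was -0.44 with replicates 3 and 4 alone. Members of a few CPM, such as Mrps18b and Mrpl47, rest on the fewest counts.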
